A study of Mus musculus with 2 samples.

Results

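The 10 genes described here shut off the light response of photoreceptors and let calcium tune it. They were chosen by name, as the genes with the symbols Guca1a, Guca1b, Gucy2e, Gucy2f, Rcvrn, Grk1, Rgs9, Rgs9bp, Gnb5, and Slc24a1, and all 10 were found among the 32285 genes of the count tables. Droplet-based 3′ single-cell RNA sequencing (scRNA-Seq) was performed on retina from male C57BL/6J mice at the age of 7 months. One group was wild type (WT), and the other (ND6) carried the 13997 G>A mutation of the mitochondrial gene for the complex I subunit ND6, described as homoplasmic across the whole body. Each group has 1 library (replicate 1), so no difference between WT and ND6 could be tested, and the spread between mice is unknown. The labels do not say how many animals went into a library. A 3′ count does not show the base change, so the genotype rests on the labels. All intervals below are exact 95% intervals and cover counting error only.

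Light closes the cyclic nucleotide-gated channels of the outer segment, and calcium falls because the sodium, calcium, and potassium exchanger encoded by Slc24a1 keeps pumping it out. Low calcium is read by calcium-binding proteins. The guanylate cyclase-activating proteins GCAP1 (Guca1a) and GCAP2 (Guca1b) then switch on the guanylate cyclases GC-E (Gucy2e) and GC-F (Gucy2f), which make cGMP and reopen the channels, and recoverin (Rcvrn) releases the kinase GRK1 (Grk1), which phosphorylates the active pigment. Transducin is shut off by a complex of RGS9 (Rgs9), its anchor R9AP (Rgs9bp), and the G protein subunit Gβ5 (Gnb5), which speeds the hydrolysis of GTP.

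The WT table holds 77958836 counts of unique molecular identifiers (UMIs) and that of ND6 holds 80358255. Barcodes with over 400 UMIs, over 200 genes, and no more than 20% mitochondrial UMIs were taken as cells, which left 12529 WT and 18395 ND6 cells, with medians of 1878 and 1416 UMIs. Of the barcodes that passed the first pair of limits, the mitochondrial limit removed 45.9% in WT and 17.3% in ND6, so the libraries were not trimmed alike. The libraries shared 59 cell barcodes. The cells were clustered without the 10 genes, and clusters were named from marker genes. Rod-like cells numbered 9972 in WT and 13480 in ND6, cone-like cells 589 and 1083, and bipolar-like cells 233 and 638.

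The purity of these classes limits what their levels mean. Cone-like cells carried the 10 rod markers (Gnat1, Sag, and others) at a median of 76.4% of the rod-like level in WT and 82.9% in ND6. Barcodes named for red blood cells carried them at 93.3% and 98.5%, and bipolar-like cells at 41.1% and 43.9%. Rod RNA was therefore present in every class. The reverse was small, since the 8 cone markers stood in rod-like cells at a median of 1.37% of their cone-like level in WT and 2.70% in ND6.

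The genes lie on 6 chromosomes, and 3 of them, Gucy2e, Rcvrn, and Rgs9, are on chromosome 11. Guca1b (chr17:47385393-47392967, plus strand) and Guca1a (chr17:47394558-47400584, minus strand) are neighbours that point at each other, with 1590 bases between their 3′ ends. Gucy2e is at chr11:69218117-69237036 (minus strand) and Gucy2f at chrX:142081160-142196931 (minus strand), in GRCm38 with the GENCODE vM21 annotation. Rcvrn (chr11:67695326-67703333), Grk1 (chr8:13405081-13421951), and Gnb5 (chr9:75306288-75345876) are on the plus strand, and Rgs9 (chr11:109225355-109298129), Rgs9bp (chr7:35578993-35585582), and Slc24a1 (chr9:64922861-64951607) on the minus strand. All 10 are annotated as protein coding. The promoter windows of Guca1a and of both cyclase genes are shown because the paralogue pairs hold the highest and the lowest ND6 over WT values among the 10 genes. They were taken from RefSeq for GRCm38.p6, from 250 bases before to 50 bases after the start of transcription, for which 7 of the 10 genes were matched and Guca1b, Rcvrn, and Rgs9bp were not. Capitals mark TAATCC, or GGATTA where it is read on the other strand, the core of sites for homeodomain factors such as CRX. The windows are chr17:47400557-47400856, chr11:69236973-69237272, and chrX:142196887-142197186, each read 5′ to 3′ along the minus strand.
Guca1a: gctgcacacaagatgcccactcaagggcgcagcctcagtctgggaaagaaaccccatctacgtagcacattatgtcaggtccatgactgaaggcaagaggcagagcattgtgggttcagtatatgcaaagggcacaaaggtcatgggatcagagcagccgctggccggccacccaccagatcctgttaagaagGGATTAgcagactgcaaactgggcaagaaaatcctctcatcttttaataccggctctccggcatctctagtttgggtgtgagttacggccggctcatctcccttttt
Gucy2e: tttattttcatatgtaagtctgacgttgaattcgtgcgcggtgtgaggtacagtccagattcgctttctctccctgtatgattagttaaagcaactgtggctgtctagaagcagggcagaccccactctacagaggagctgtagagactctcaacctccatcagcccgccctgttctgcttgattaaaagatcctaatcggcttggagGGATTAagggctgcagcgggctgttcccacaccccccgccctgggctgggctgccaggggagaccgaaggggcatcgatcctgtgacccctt
Gucy2f: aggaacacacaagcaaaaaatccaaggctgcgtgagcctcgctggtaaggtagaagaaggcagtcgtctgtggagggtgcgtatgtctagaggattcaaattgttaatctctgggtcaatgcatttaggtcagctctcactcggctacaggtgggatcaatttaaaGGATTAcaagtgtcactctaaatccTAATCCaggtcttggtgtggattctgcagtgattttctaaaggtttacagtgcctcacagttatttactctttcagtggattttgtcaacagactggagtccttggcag
The match began 57 bases before the start in Guca1a and 42 bases before it in Gucy2e. Gucy2f held 2 matches, at 84 and 59 bases before the start, and Gnb5 held 1. In all, 4 of the 7 windows held TAATCC on either strand, against 7.06% of 32851 promoter windows of the same length. TGCTGA, a core of sites for MAF-type factors such as NRL, or TCAGCA on the other strand, was present in 2 of the 7, Grk1 and Rgs9, against 19.5% of all windows. None of the 7 windows held both. The share of all windows that hold both was not counted, so this is not read as a trait of these genes. These are matches of letters and not binding sites.

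Most member UMIs were in rod-like and cone-like cells, which also held most of all UMIs. Of the 858481 member UMIs in WT cells, 73.0% were in rod-like cells, which held 66.1% of all UMIs, and 18.1% in cone-like cells, which held 19.1%. Of the 901607 member UMIs in ND6 cells, 64.1% were in rod-like cells (56.6% of all UMIs) and 23.8% in cone-like cells (23.8% of all UMIs). Together the members held 1.57% of all UMIs in WT cells and 1.43% in ND6 cells. Levels are given as UMIs summed over a class and scaled to 1000000 UMIs of that class (CPM). Capture can differ between transcripts, so a level is compared between cells or libraries and not between genes.

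**Figure D1:**
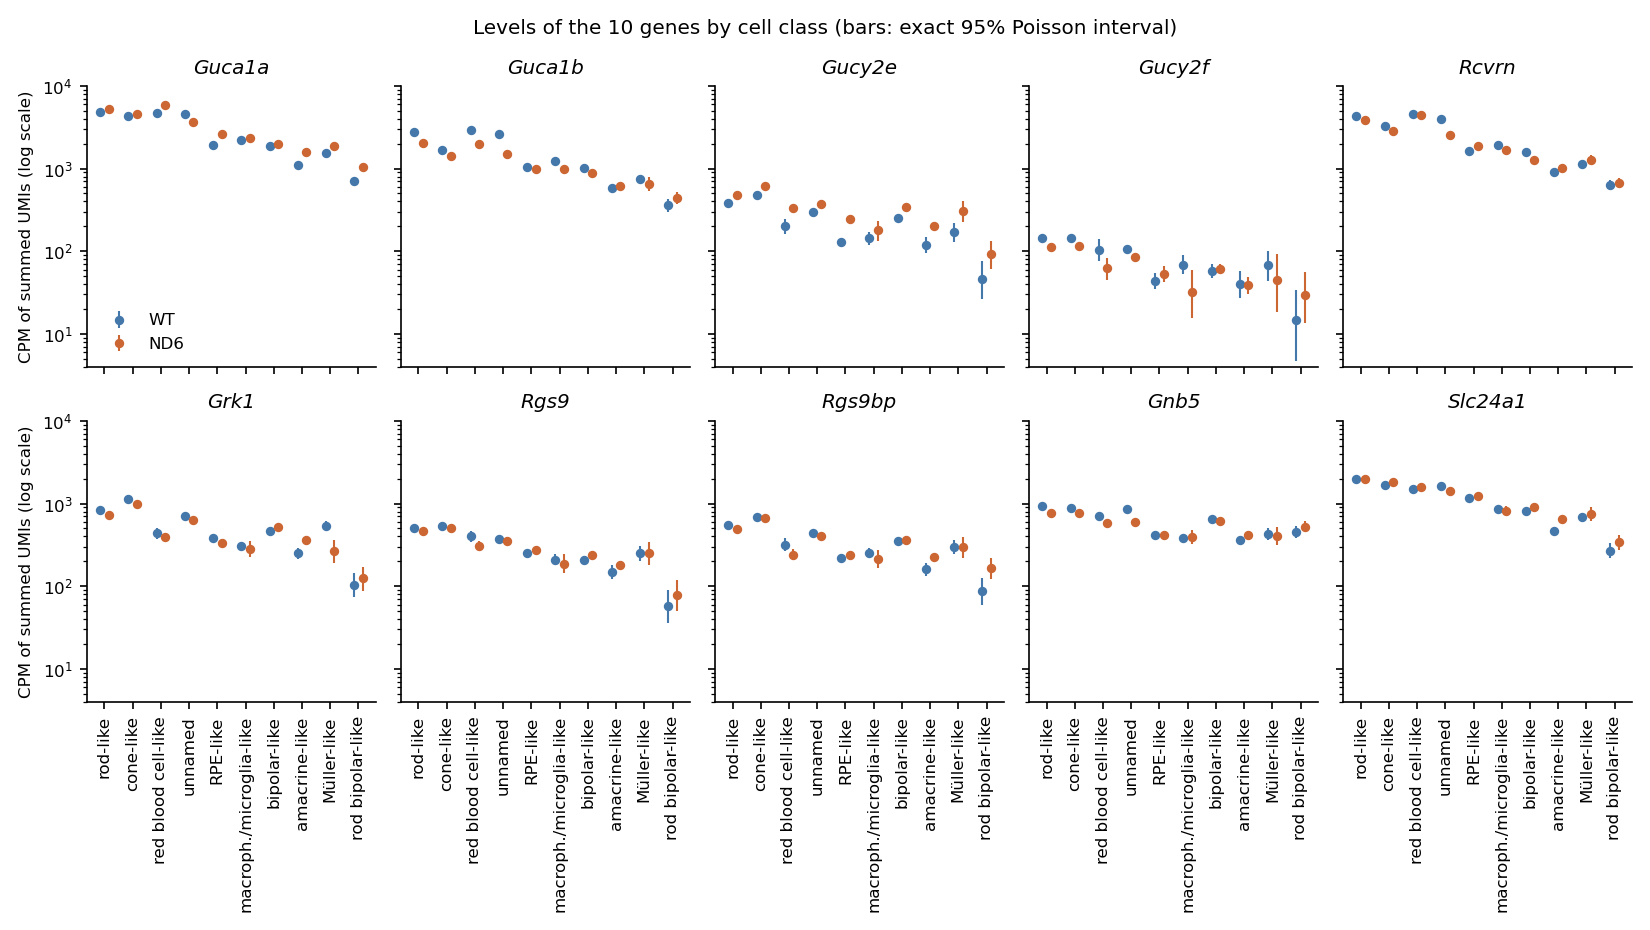
Level of each gene in each cell class, as CPM of summed UMIs on a log axis, for WT (blue) and ND6 (orange); bars are exact 95% Poisson intervals. Rod-like cells rank first or second among the 9 classes that do not overlap in every panel, and rod bipolar-like cells sit lowest of all classes drawn for 9 genes in each library, with Gnb5 standing closer to the rod-like level.

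Over 9 classes that do not overlap, 10 genes, and 2 libraries, the highest level was in cone-like cells for 11 of the 20 gene and library pairs, in rod-like cells for 5, and in red blood cell-like barcodes for 4. Amacrine-like cells were lowest for 15 of the 20. The order is loose in its middle, since the intervals of 86 of the 160 neighbouring classes overlapped. For Guca1a in WT, the rod-like level of 4894 CPM and the red blood cell-like level of 4746 CPM could not be separated, and 2241 CPM was found in macrophage- or microglia-like cells and 1103 CPM in amacrine-like cells. For Gucy2e in ND6, cone-like cells had 619 CPM, rod-like cells 473 CPM, and the 7 lower classes could not be separated from their next neighbour.

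The calcium sensors of the cyclases differed in direction in rod-like cells. Guca1b, the gene for GCAP2, stood at 2784 CPM in WT (100378 UMIs) and 2015 CPM in ND6 (71851 UMIs), a log2 ratio of ND6 over WT of -0.47 (-0.48 to -0.45). This was the lowest value of the 10 genes, and 8.87% of 13516 genes were as low or lower. Guca1a, the gene for GCAP1, stood at 4894 CPM in WT (176445 UMIs) and 5292 CPM in ND6 (188675 UMIs), a log2 ratio of 0.11 (0.10 to 0.12). Of the same 13516 genes, 42.6% were as high or higher. The UMI ratio of Guca1a to Guca1b was thus 1.76 (1.74 to 1.77) in WT and 2.63 (2.60 to 2.65) in ND6.

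The cyclases were split in the same way. Gucy2e was 380 CPM in WT (13717 UMIs) and 473 CPM in ND6 (16861 UMIs), a log2 ratio of 0.31 (0.28 to 0.35), the highest of the 10 genes. Among all genes compared, 28.3% were as high or higher. Gucy2f was 145 CPM in WT (5214 UMIs) and 113 CPM in ND6 (4027 UMIs), a log2 ratio of -0.36 (-0.42 to -0.30), and 14.4% of genes were as low or lower. The rod-like UMI ratio of Gucy2e to Gucy2f was 2.63 (2.55 to 2.72) in WT and 4.19 (4.05 to 4.33) in ND6. In both pairs, one paralogue was therefore higher and the other lower in the ND6 library.

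**Figure D2:**
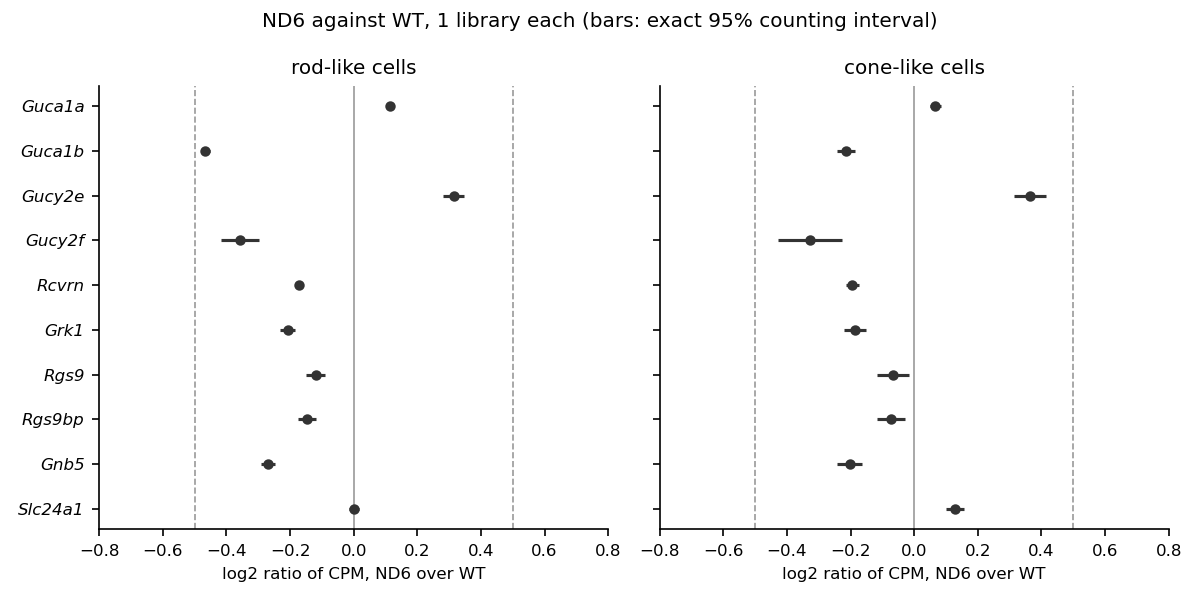
Log2 ratio of CPM, ND6 over WT, for each gene in rod-like (left) and cone-like (right) cells; bars are exact 95% counting intervals and dashed lines mark a log2 ratio of 0.5 in either direction. All 10 genes lie between the dashed lines in both classes, and Guca1b and Gucy2f stand to the left while Gucy2e stands to the right.

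The ratios of both pairs were also read within strata of rod-like cells, because ND6 cells had fewer UMIs and a different share of the nuclear RNA Malat1. The Guca1a to Guca1b ratio was higher in ND6 in 4 of 4 bins of depth and on both sides of the median Malat1 share (0.378% of UMIs), with intervals apart in all 6. In cells with over 800 and up to 1600 UMIs it was 1.55 in WT and 2.82 in ND6, and in cells with over 3200 UMIs it was 1.84 and 2.47. The Gucy2e to Gucy2f ratio behaved alike, higher in ND6 in 6 of 6 strata with intervals apart. It was 2.61 in WT and 4.03 in ND6 in cells with over 3200 UMIs, and 2.29 and 4.70 in cells with up to 800. Guca1b by itself was lower in ND6 in 6 of 6 strata (log2 ratio -0.71 to -0.37) and Guca1a higher in 6 of 6 (0.04 to 0.20). Gucy2e was higher in 6 of 6 (0.28 to 1.14) and Gucy2f lower in 5 of 6 (-0.49 to 0.10).

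Outside rod-like cells, the ratio of Guca1a to Guca1b was higher in ND6 in each of the other 7 classes shown, with intervals apart in all 7. In cone-like cells it was 2.60 (2.55 to 2.64) in WT and 3.15 (3.11 to 3.20) in ND6, and in bipolar-like cells 1.88 and 2.25. In barcodes of 10 to 100 UMIs, which serve here as free RNA, it was 2.03 (1.81 to 2.28) and 2.42 (2.21 to 2.65), with intervals that overlap. The ratio of Gucy2e to Gucy2f was also higher in ND6 in each of these 7 classes. Its intervals overlapped, however, in bipolar-like, amacrine-like, macrophage- or microglia-like, and RPE-like (retinal pigment epithelium) cells. In cone-like cells it was 3.32 (3.14 to 3.52) in WT and 5.37 (5.10 to 5.66) in ND6. In free RNA it was 3.71 (2.14 to 6.76) and 3.37 (2.41 to 4.79), where Gucy2f rested on 17 and 46 UMIs and no difference was detectable at this depth. Rod RNA is in all of these classes, and its part in their ratios was not tested.

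**Figure D3:**
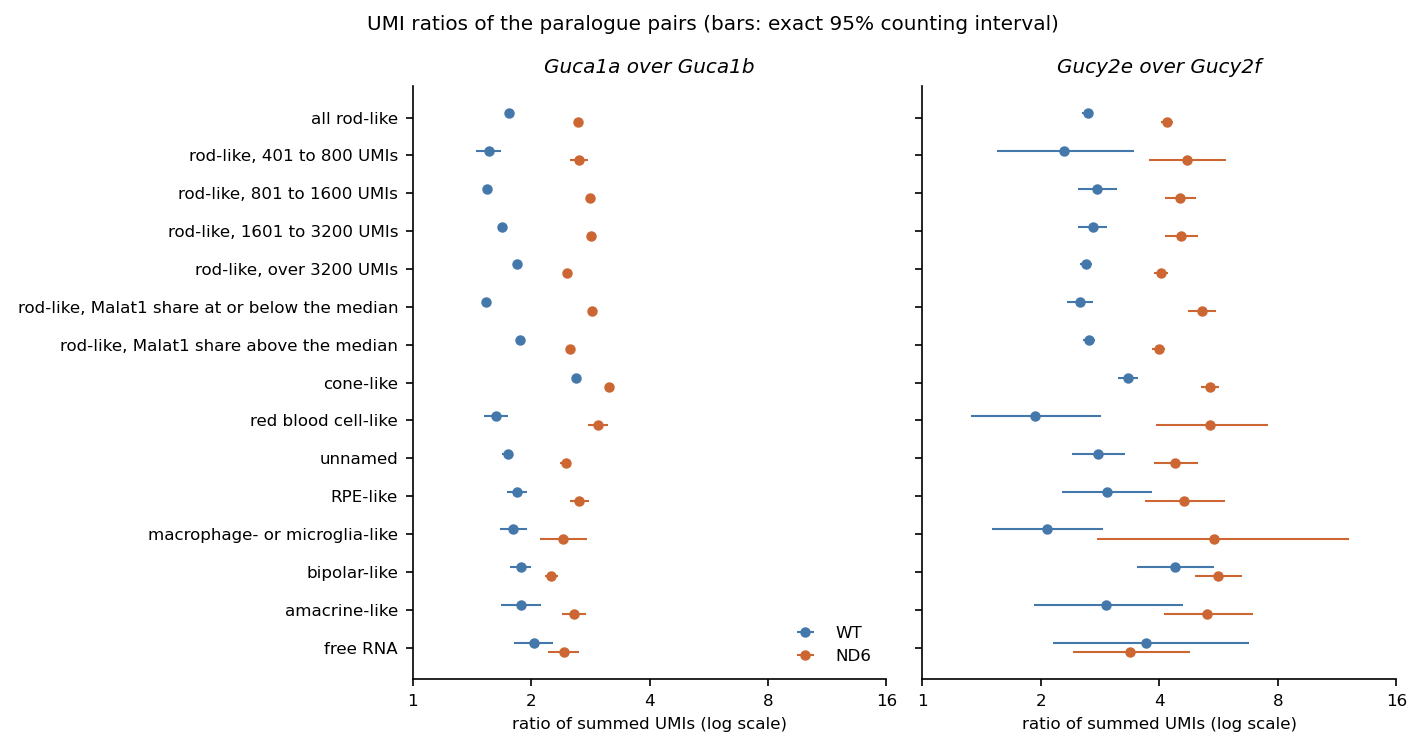
Ratio of summed UMIs of Guca1a to Guca1b (left) and of Gucy2e to Gucy2f (right), on log axes, for WT (blue) and ND6 (orange); bars are exact 95% counting intervals. In rod-like cells the ratios are 1.76 and 2.63 for the first pair and 2.63 and 4.19 for the second, and the ND6 point lies to the right of the WT point in all 6 rod-like strata of both pairs.

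Recoverin and GRK1 were slightly lower in ND6. Rcvrn, the calcium sensor that holds back the kinase, stood at 4362 CPM in WT and 3877 CPM in ND6 in rod-like cells, a log2 ratio of -0.17 (-0.18 to -0.16), and was lower in 6 of 6 strata (-0.32 to -0.17). Grk1, the kinase itself, stood at 838 CPM in WT and 725 CPM in ND6, a log2 ratio of -0.21 (-0.23 to -0.18). The Grk1 value depended on the cells compared. Within strata it ranged from -0.23 to 0.17, was below 0 in 2 of 6, and was 0.00 (-0.07 to 0.07) in cells with over 1600 and up to 3200 UMIs.

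The genes of the transducin shut-off complex were all slightly lower in the pooled ND6 rod-like cells. In rod-like cells, Rgs9, the catalytic subunit, was 501 CPM in WT and 461 CPM in ND6, a log2 ratio of -0.12 (-0.15 to -0.09). Its membrane anchor Rgs9bp was 552 CPM and 498 CPM, a log2 ratio of -0.15 (-0.18 to -0.12). The UMI ratio of Rgs9 to Rgs9bp was 0.909 in WT and 0.926 in ND6 in rod-like cells and 0.770 and 0.773 in cone-like cells, with intervals that overlap. It was lower in ND6, with intervals apart, in 2 of the 6 rod-like strata, those with up to 800 UMIs (1.10 and 0.672) and with little Malat1 (1.34 and 1.19). Gnb5, the Gβ5 subunit that RGS9 shares with its relatives, was 938 CPM in WT and 779 CPM in ND6, a log2 ratio of -0.27 (-0.29 to -0.25). The ratio of Rgs9 to Gnb5 was 0.534 (0.524 to 0.544) in WT and 0.592 (0.581 to 0.604) in ND6, and in cone-like cells 0.598 and 0.657, also with intervals apart. In rod-like cells with little Malat1 it went the other way, at 0.575 and 0.527. Rgs9 and Gnb5 were lower in ND6 in 6 of 6 strata, and Rgs9bp in 4 of 6.

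Slc24a1, the rod exchanger that lowers calcium, differed little between the libraries. It was 1978 CPM in WT and 1979 CPM in ND6 in rod-like cells, a log2 ratio of 0.00 (-0.01 to 0.02), within counting error. Its strata ranged from -0.03 to 0.21, and the intervals lay above 0 in cells with up to 800 UMIs (0.08 to 0.34) and with over 3200 UMIs (0.02 to 0.06). In cone-like cells it was 1656 CPM and 1810 CPM, a log2 ratio of 0.13 (0.10 to 0.16).

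As a set, 3 of the 10 genes were higher and 7 lower in ND6 rod-like cells, with a median log2 ratio of -0.16, where the median of all 13516 genes with at least 20 UMIs was 0.03. The intervals lay above 0 for 2 of the 10 and below 0 for 7, and that of Slc24a1 included 0. None of the 10 passed a log2 ratio of 0.5 in size in rod-like cells, while 20.1% of all genes were that much higher and 7.72% that much lower in ND6. In cone-like cells, the median was -0.13 (all genes -0.02) and none of the 10 passed, against 12.2% of all genes higher and 8.05% lower. In bipolar-like cells, the median was 0.07 (all genes 0.08) and none passed, against 17.6% and 6.69%. That sum mixes subclasses, since rod bipolar-like cells were 27.9% of bipolar-like cells in WT and 9.25% in ND6. The median was 0.33 in rod bipolar-like cells, where all 9 genes with enough UMIs were higher (all genes 0.08). It was -0.10 in the other bipolar-like cells, with 2 higher and 8 lower (all genes 0.05). Rod markers made up 1.12% of UMIs in WT and 1.55% in ND6 in rod bipolar-like cells, and 3.59% and 3.71% in the other bipolar-like cells. The part of rod RNA in these medians was not tested. A low gene passes a log2 ratio of 0.5 more easily by counting error. Among genes with at least 200 UMIs in rod-like cells, 15.7% passed in either direction.

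The values in cone-like cells lay near those in rod-like cells, with the same sign for the 9 genes other than Slc24a1, whose rod-like interval included 0. Gucy2e was 481 CPM in WT and 619 CPM in ND6, a log2 ratio of 0.36 (0.31 to 0.41), and Gucy2f 145 CPM and 115 CPM, a log2 ratio of -0.33 (-0.43 to -0.23). Guca1b was 1670 CPM and 1439 CPM, a log2 ratio of -0.21 (-0.24 to -0.19), less than its rod-like value. Guca1a had a log2 ratio of 0.07, Rcvrn of -0.19, Grk1 of -0.19, Gnb5 of -0.20, Rgs9 of -0.07, and Rgs9bp of -0.07. Since these cells carried rod markers at most of the rod-like level, their values are not independent of those of rods.

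Between cone-like and rod-like cells of the same library, the genes formed a graded order that was nearly the same in WT and ND6. Grk1 was 1129 CPM in cone-like and 838 CPM in rod-like cells of WT, a log2 ratio of 0.43 (0.40 to 0.46), and the ratio was 0.45 in ND6. Gucy2e (0.34 in WT and 0.39 in ND6) and Rgs9bp (0.34 and 0.41) were also higher in cone-like cells. At the other end, Guca1b was 1670 CPM in cone-like and 2784 CPM in rod-like cells of WT, a log2 ratio of -0.74 (-0.76 to -0.71), and -0.49 in ND6. Rcvrn was at -0.40 and -0.43, Slc24a1 at -0.26 and -0.13, and Guca1a at -0.17 and -0.22. None of the 10 reached 2-fold in either library, against 7.93% of all genes higher and 1.68% lower in cone-like cells of WT, and 6.82% and 3.06% in ND6.

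The classes differ in depth. Cone-like cells had medians of 8164 UMIs in WT and 7812 in ND6, and rod-like cells of 1786 and 1353. Over cells of all depths, the share of Malat1 was close, at 3.17% of UMIs in cone-like and 3.30% in rod-like cells of WT, and 2.61% and 2.71% in ND6. In rod-like cells, those with more Malat1 had more Grk1 (log2 ratio over the rest of 1.11 in WT and 0.82 in ND6), Rgs9bp (0.94 and 0.90), Gucy2e (0.74 and 0.48), and Gucy2f (0.66 and 0.85). They had less Rcvrn (-0.64 and -0.60), Guca1b (-0.58 and -0.24), and Guca1a (-0.29 and -0.43). The median over all genes was 0.88 in WT and 0.54 in ND6, so Gucy2e was below it in both libraries and Gucy2f in WT. The 3 genes with less stood far from it. When only cells with over 3200 UMIs were compared, the cone-like over rod-like log2 ratio of Grk1 was 0.20 in WT and 0.18 in ND6, that of Gucy2e 0.16 and 0.18, and that of Gucy2f, at first near 0, was -0.18 and -0.22. Guca1b remained lower, at -0.58 and -0.39. Slc24a1 stood farther from 0 than over all depths, at -0.30 and -0.20, as did Gnb5, at -0.14 and -0.07. This comparison was added after the data were seen, and the cone-like cells in it were still deeper, with medians of 10020 and 11265 UMIs against 5679 and 5836. Their share of Malat1 was also lower, at 3.19% of UMIs against 4.13% in rod-like cells of WT, and 2.62% against 3.37% in ND6. The comparison is thus not matched for Malat1.

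**Figure D4:**
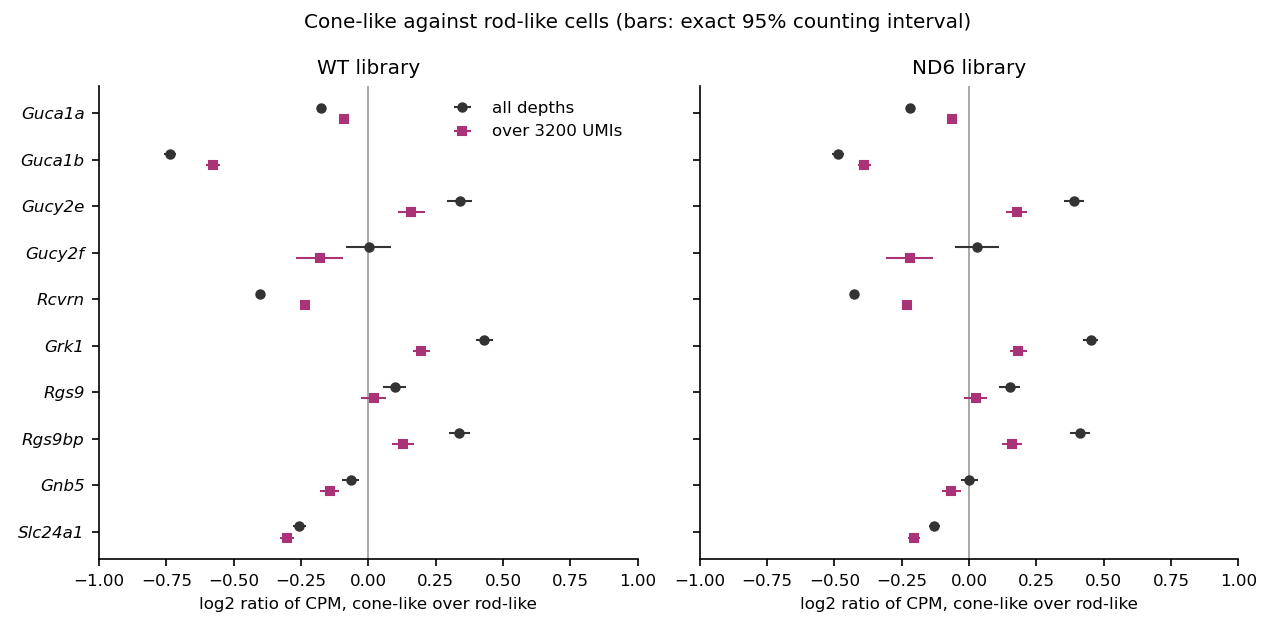
Log2 ratio of CPM, cone-like over rod-like, in the WT library (left) and the ND6 library (right), for cells of all depths (black circles) and for cells with over 3200 UMIs only (purple squares); bars are exact 95% counting intervals. Grk1, Gucy2e, and Rgs9bp lie right of 0 and Guca1b, Rcvrn, and Guca1a left of it in both panels, and the squares lie closer to 0 for these 6 genes. For Slc24a1, Gucy2f, and Gnb5 the squares lie farther from 0 than the circles.

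The rod RNA in cone-like cells gives a second yardstick. If all member UMIs there came with rod RNA, each gene would keep its rod-like ratio to the rod markers, and the UMIs over this number would be 1. In cells with over 3200 UMIs, single rod markers ranged from 0.887 to 1.11 in WT and from 0.863 to 1.12 in ND6. Above this range in both libraries were Grk1 (1.40 and 1.33), Gucy2e (1.37 and 1.32), Rgs9bp (1.34 and 1.31), and Rgs9 (1.24 and 1.19), and Guca1a was above it in WT (1.15, and 1.12 in ND6). Guca1b was below it in WT (0.820) and within it in ND6 (0.892). Rcvrn, Slc24a1, Gucy2f, and Gnb5 were within it in both, so a cone-like level of these 4 genes above the rod RNA of the barcodes was not detectable by this measure. Over cells of all depths, Gucy2f (1.31 and 1.25) was above the range of the markers in both libraries and Gnb5 (1.24) in WT.

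In the classes that are not photoreceptors, the same yardstick placed Guca1a, Guca1b, and Rcvrn near 1. Over bipolar-like, amacrine-like, Müller-like, macrophage- or microglia-like, and RPE-like (retinal pigment epithelium) cells of both libraries, Guca1a ranged from 0.901 to 1.02, Guca1b from 0.860 to 1.10, and Rcvrn from 0.806 to 0.982. Slc24a1 was near 1 except in RPE-like cells, where 2103 UMIs stood against 1399 expected in WT (a ratio of 1.44 to 1.57) and 2131 UMIs against 1665 in ND6 (1.23 to 1.34). Grk1 (0.802 to 2.04), Gnb5 (0.894 to 1.93), Gucy2e (0.822 to 1.81), and Rgs9bp (0.976 to 1.78) stood above 1 with their intervals in bipolar-like and amacrine-like cells of both libraries. Rgs9 ranged from 0.915 to 1.61, and its interval lay above 1 in 7 of its 10 values. Free RNA had been set as the main reference, and with it the median over the 100 values was 1.11, against 1.03 with rod-like cells. Single genes moved more. With free RNA, Slc24a1 ranged from 1.10 to 1.74, with its interval above 1 in 10 of 10 values. Rgs9 (1.03 to 2.26) was above 1 with its interval in 9 of 10. Guca1a (0.817 to 0.946) was below 1 with its interval in 8 of 10. With rod-like cells as the reference, the interval of Slc24a1 lay above 1 in 4 of 10 values, including those of RPE-like cells in both libraries. Its excess was thus largest in RPE-like cells with that reference, but was not confined to them with either one.

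Gnb5 was farthest above the rod RNA in rod bipolar-like cells (65 in WT and 59 in ND6). These cells had the least rod RNA, with rod markers at 1.12% of UMIs in WT and 1.55% in ND6, and 7 of the 10 genes there had intervals that included 1 in both libraries. Gnb5, in contrast, had 157 UMIs in WT, 3.29 times (2.79 to 3.85) the 47.7 expected, and 160 UMIs in ND6, 3.75 times (3.19 to 4.38) the 42.7 expected. It was also above 1 with its interval, by less, in the other bipolar-like cells (1.56 and 1.87), amacrine-like cells (1.68 and 1.74), and Müller-like cells (1.45 and 1.48). The other exceptions were in ND6 alone, Rgs9bp at 1.83 (1.36 to 2.42; in WT 1.07) and Guca1b at 1.22 (1.03 to 1.45; in WT 0.883). Gβ5 is known to pair with RGS7 and RGS11 at the ON bipolar synapse, where GPR179 anchors them, and the genes of that complex were present in the same cells. Rgs7 was 314 CPM in WT and 250 CPM in ND6, Rgs11 was 297 CPM and 207 CPM, and Gpr179 was 497 CPM and 760 CPM. In rod-like cells these 3 genes were between 0.305 and 2.64 CPM. Rgs9 itself had 20 UMIs against 25.5 expected in WT and 24 against 25.3 in ND6 in rod bipolar-like cells, so no Rgs9 above the rod RNA was detectable there.

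**Figure D5:**
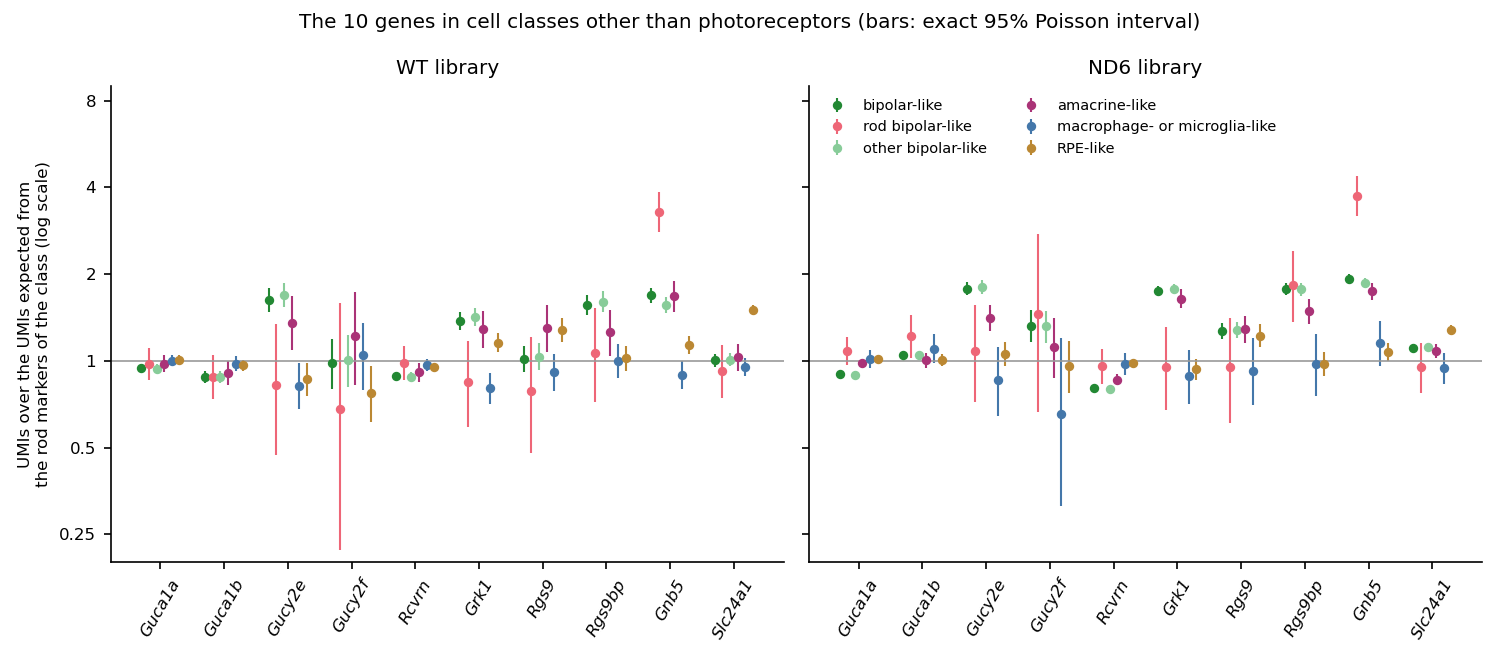
UMIs of each gene in 6 cell classes over the number expected if all came with rod RNA (the rod-marker UMIs of the class multiplied by the ratio of the gene to the rod markers in rod-like cells), on a log axis, in the WT library (left) and the ND6 library (right); bars are exact 95% Poisson intervals. Gnb5 in rod bipolar-like cells lies highest in both panels, at 3.29 and 3.75, while Guca1a, Guca1b, and Rcvrn stay close to 1.

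Other genes of the pathway give context. Of 6 rod activation genes (such as Pde6a, Pde6b, and Cnga1), none passed a log2 ratio of 0.5 in rod-like cells, with a median of 0.03, and the lowest was Gngt1, a transducin subunit, at -0.40. The rod transcription factor Nrl, one of the rod markers, was at -0.35. Of 13 other recovery and calcium genes, 11 were in the tables, and 1 passed, Slc24a2, the cone exchanger, at 1.05 CPM in WT (38 UMIs) and 3.59 CPM in ND6 (128 UMIs). In this list, Rd3, which restrains the cyclases, was 234 CPM and 173 CPM, a log2 ratio of -0.44 (-0.49 to -0.39), and Unc119, a lipid-binding partner of transducin, was 4828 CPM and 3810 CPM, a log2 ratio of -0.34. All 6 other genes of R7 RGS complexes were higher in ND6 rod-like cells past 0.5, with a median of 1.85, but none exceeded 4.80 CPM there. Rgs7 rested on 12 UMIs in WT and 76 in ND6, and Gpr179 on 11 and 94. Bipolar-like cells, where Rgs7, Rgs11, and Gpr179 were high, made up 1.86% of WT and 3.47% of ND6 cells, and the part of their RNA in the rod-like sums was not tested. Of 5 cone activation genes, 4 were higher past 0.5 in ND6 rod-like cells in the same way, and of 8 other neuronal calcium sensor genes 6 were higher and 1, Hpcal1, lower, at 142 CPM in WT and 95.5 CPM in ND6.

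Shares of cells with at least 1 UMI gave the same picture at equal depth. With each cell thinned to 400 UMIs, Guca1b was found in 69.6% (68.7 to 70.5) of WT and 57.4% (56.6 to 58.2) of ND6 rod-like cells, and Guca1a in 85.7% and 87.5%. Gucy2e was found in 10.8% (10.2 to 11.5) and 14.7% (14.1 to 15.4), and Gucy2f in 4.19% (3.81 to 4.60) and 3.27% (2.98 to 3.59). Without thinning, the WT and ND6 shares were 97.6% and 92.2% for Guca1b and 46.2% and 45.8% for Gucy2e. In macrophage- or microglia-like cells, which should lack these genes, thinned shares were still 40.1% and 28.7% for Guca1b and 6.35% and 9.56% for Gucy2e, at medians of 1682 and 1326 UMIs before thinning. In cone-like cells, the Guca1b shares of 40.6% and 32.1% did not exceed these beyond counting error. The CPM levels did differ, at 1670 (1645 to 1695) in cone-like and 1242 (1168 to 1320) in macrophage- or microglia-like cells of WT, and 1439 (1420 to 1458) and 980 (872 to 1097) in ND6. Rod markers made up 5.79% of UMIs in cone-like and 3.44% in macrophage- or microglia-like cells of WT, and 7.03% and 3.79% in ND6. The shares therefore do not set a floor for cone-like cells, and the part of rod RNA was not tested.

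Patterns were compared by Pearson's r of log2(CPM + 1) across 7 named classes in each library (14 values, all of which share rod RNA), over 10207 genes. The gene with the pattern most like Guca1a was Rtbdn (r = 0.993), and Guca1b was most like Nrl (0.989). Rcvrn was most like Fabp12 (0.993) and Gucy2f like Arl6 (0.952). Grk1 and Rgs9bp had the same nearest gene, Fam161a (0.976 and 0.983), Rgs9 was most like Adipor1 (0.970), Gnb5 like Rd3 (0.963), and Slc24a1 like Wdr27 (0.973). Within the 10 genes, the closest pair was Grk1 with Rgs9bp (0.978) and the least alike Guca1b with Gucy2e (0.495).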

How the data were processed

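Retinas were dissociated with enzymes, and libraries were made with a 10x Genomics 3′ kit. Per the submitters' notes, Cell Ranger 3.0.2 and mm10 were used, and the authors deposited raw UMI counts per gene for all barcodes; the annotation release is not given in the sources used here. The study's limits on UMIs, genes, and mtDNA-encoded UMIs were applied, and the cells were clustered with Scanpy 1.11.5 (3000 variable genes, 30 components, Leiden resolution 1), leaving out the 10 genes, their pathway genes, and mtDNA-encoded genes. The study's regression and integration were not repeated. The members, the lists, and the naming markers were chosen with earlier results of these data known, and the naming rule was settled after the clusters were seen. All 10 members are named, and of the pathway lists those past the fold, besides Rd3, Unc119, Gngt1, Nrl, and the R7 genes, picked after their values were seen. Scrublet called 0 doublets, so doublets were kept. UMIs were summed per class and library. Ratios carry exact conditional, levels exact Poisson, and shares exact Clopper-Pearson intervals (scipy 1.17.1). Genes needed 20 UMIs over both sums. The ratios and their intervals were checked on simulated counts with known folds. Those counts held counting error only, so they say nothing on spread between mice or libraries or on free RNA. Fits that test were not made, since each genotype has 1 library. For Gucy2e, the gene of the most similar pattern is not reported here.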

Additional observations from a re-analysis of the deposited data

How the results depend on the processing

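No paired analysis was possible because each group has 1 library. Of 300 values for single genes under the alternatives, 24 had another sign than the value reported, and 9 passed the fold that none had passed. These 9 were Guca1b in rod-like cells with cells weighted equally (-0.59) and at Leiden resolution 0.5 (-0.70), Gucy2e there at resolution 0.5 (0.54), and, cone-like over rod-like, Guca1b in WT (-1.29 with equal weights and -1.13 at resolution 0.5), Grk1 (1.33 in WT and 1.07 in ND6), and Rgs9bp (1.10 and 1.08) at resolution 0.5, where rod-like cells were 6370 in WT and 9445 in ND6. The rod-like median of -0.16 was -0.19 with scaling by the median of ratios, -0.18 with scaling to UMIs not encoded by mtDNA, -0.046 with no mtDNA limit, -0.12 with equal weights, and -0.10 at resolution 0.5. With equal weights, the cone-like median of -0.13 was -0.064 and the bipolar-like median of 0.07 was 0.37. The cone-like over rod-like median was -0.03 in WT and 0.02 in ND6; it was -0.26 and -0.21 with scaling by the median of ratios, 0.27 and 0.32 at resolution 0.5, and -0.12 and -0.064 with cells over 3200 UMIs only. It was 0.067 in WT with no mtDNA limit and -0.13 in ND6 with equal weights. The fold of the Guca1a to Guca1b ratio, ND6 over WT, was 1.49, and 1.52 with no mtDNA limit, 1.66 with equal weights, and 1.87 at resolution 0.5. For Gucy2e to Gucy2f it was 1.59, and 1.70 with equal weights and 1.90 at resolution 0.5; these alternatives for the ratios, and the one of cells over 3200 UMIs, were chosen after seeing the data. The share of genes past 0.5 in rod-like cells was 27.8% with at least 20 UMIs, 44.3% with at least 1, and 15.7% with at least 200. Depth limits Gucy2f most, with 14.5 CPM from 5 UMIs in WT rod bipolar-like cells. The cause of these shifts was not tested.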
